A study of Mus musculus with 4 samples.

Results

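The genes described here were 10 components of Wnt signalling in mouse tibial muscle during injury-induced heterotopic ossification (HO), the formation of bone inside soft tissue. They were the ligands Wnt5a and Wnt5b, the secreted inhibitors Sfrp1, Sfrp2, Sfrp5, Frzb, Wif1 and Dkk3, and the target genes Lef1 and Axin2. They were taken by gene symbol, 1 row each, from the 32285 features that were counted in every section. The animals were 6-8 week old C57BL/6 mice of the Nse-Bmp4 genotype, a transgene in which the rat neuron-specific enolase promoter drives Bmp4 cDNA, so every section carried it and none served as a wild-type control. The day 0 section was uninjured tibial muscle, and the others were tibial muscle collected on days 1, 3 and 7 after injury (dpi, days post injury), which in the study's methods was an injection of cardiotoxin. Spatial transcriptomes were recorded with 1 fresh frozen section per day. Per the labels, each group mixed 3 tibial muscles, and it is not known here whether a section shows 1 of them or more.

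Wnt ligands are secreted lipid-modified proteins that bind Frizzled receptors together with LRP5, LRP6, ROR or RYK coreceptors. In the canonical branch the signal stabilises beta-catenin, which acts with LEF and TCF factors on target genes, and Axin2 is a widely used target that also feeds back on the pathway. Wnt5a and Wnt5b are mostly tied to branches that do not use beta-catenin, and Wnt signals are known to influence muscle repair and the choice between cartilage and bone.

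The 4 sections held 10835 spots, each covering several cells, and between 16777832 UMIs (day 1) and 56113066 UMIs (day 3), where a UMI (unique molecular identifier) marks 1 captured transcript. The day 1 section was the shallowest, with a median of 6322 UMIs per spot against 21029 at day 0, and 513 of its 2667 spots were under 2000 UMIs. Adult myofibre genes took 22.6%, 11.8%, 7.30% and 13.3% of UMIs at days 0, 1, 3 and 7, so each section had the RNA of muscle, and a change in that share moves every other gene's level. From 1539 to 2311 spot barcodes were common to a pair of sections, which are positions printed on the array and not shared cells. Levels are CPM, the UMIs of a gene per 1000000 UMIs of the section, and ranges in parentheses are 95% intervals that cover counting error only. With 1 section per day there was no spread between animals, so no test was made, "higher" and "lower" compare single sections, and fewer cells of a type cannot be told apart from less RNA per cell. Levels of different genes are set against each other only within a section, as the Wnt5b share of its pair with Wnt5a and as inhibitor UMIs per ligand UMI. In the RefSeq annotation of GRCm38.p6 the genes lie on chromosome 14 (Wnt5a), 6 (Wnt5b), 8 (Sfrp1), 3 (Sfrp2 and Lef1), 19 (Sfrp5), 2 (Frzb), 10 (Wif1), 7 (Dkk3) and 11 (Axin2).

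The upstream sequences of 4 members are shown because the results on Frzb, Wif1 and Sfrp5 turn on where and when their RNA was found and Lef1 was nearly absent, and because these windows lay outside every annotated gene of the RefSeq table. Each line gives the 250 bases before the RefSeq transcription start on the gene's own strand, 5′ to 3′, in the GRCm38.p6 build, and capitals mark the core of the TCF/LEF motif, CTTTGA, searched on both strands.
Frzb (chr2:80447397-80447646, minus strand): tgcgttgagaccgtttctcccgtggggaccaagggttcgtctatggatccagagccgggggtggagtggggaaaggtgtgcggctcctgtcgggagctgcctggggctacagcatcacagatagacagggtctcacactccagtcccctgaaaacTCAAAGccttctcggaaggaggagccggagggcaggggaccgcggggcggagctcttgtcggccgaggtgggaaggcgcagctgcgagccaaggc
Lef1 (chr3:131110047-131110296, plus strand): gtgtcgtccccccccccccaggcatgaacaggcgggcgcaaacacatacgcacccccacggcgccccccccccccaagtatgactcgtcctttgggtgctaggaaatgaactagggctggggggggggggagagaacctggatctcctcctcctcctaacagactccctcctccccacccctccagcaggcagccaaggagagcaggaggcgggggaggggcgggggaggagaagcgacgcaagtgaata
Wif1 (chr10:121033754-121034003, plus strand): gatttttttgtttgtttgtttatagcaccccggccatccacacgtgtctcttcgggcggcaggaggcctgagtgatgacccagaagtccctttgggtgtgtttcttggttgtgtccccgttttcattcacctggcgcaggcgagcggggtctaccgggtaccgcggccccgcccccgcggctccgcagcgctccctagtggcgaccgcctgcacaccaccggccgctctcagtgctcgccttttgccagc
Sfrp5 (chr19:42202253-42202502, minus strand): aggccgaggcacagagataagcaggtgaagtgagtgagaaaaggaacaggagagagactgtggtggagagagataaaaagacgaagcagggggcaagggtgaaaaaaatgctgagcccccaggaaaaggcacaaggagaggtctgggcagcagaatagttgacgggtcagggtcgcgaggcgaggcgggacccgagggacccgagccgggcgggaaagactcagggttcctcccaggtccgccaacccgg
The Frzb window held 1 such core, on the other strand and with its first base 95 bases before the start. The same core was found in 4544 of 32851 windows of this length (13.8%), so a match of this kind is common. The longer form CTTTGAT, which contains the core and was also searched on both strands, was found in 1053 windows (3.21%), and among members only in 1 of the Wnt5b windows, 71 bases before that start. Windows were matched for 7 members, and the table used held none for Wnt5a, Sfrp1 and Dkk3. The printed Lef1 window held no core, but another Lef1 window, which lay within the gene and is not printed, held 2. Their first bases were 180 and 120 bases before that start. A match describes letters and is not a binding site.

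The Wnt ligands moved in different ways. Wnt5a, a ligand that guides cell polarity and migration, was at 9.87 CPM at day 0 (433 UMIs), 5.07 at 1 dpi (85 UMIs), 2.62 at 3 dpi (147 UMIs) and 13.1 at 7 dpi (547 UMIs). It was 1.95-fold below day 0 at 1 dpi, lowest at 3 dpi, 3.77-fold below the uninjured section (log2 ratio -1.91, -2.19 to -1.64), and 4.99-fold higher at day 7 than at day 3. The small excess of day 7 over day 0 (log2 ratio 0.41, 0.22 to 0.59) depended on the scaling, because it became -0.20 with TMM factors. Wnt5b, its paralogue on chromosome 6, was at 0.615, 1.79, 2.07 and 4.97 CPM (27, 30, 116 and 208 UMIs). Its level was higher than in the uninjured section on each injured day, and the day 7 section was highest at 8.08-fold (log2 ratio 3.01, 2.43 to 3.65). Days 1 and 3 did not differ beyond counting error for Wnt5b. Within each section, where scaling cancels and transcript length was not corrected for, Wnt5b made up 5.87% (3.90 to 8.43) of the UMIs of the pair at day 0, 26.1% (18.3 to 35.1) at 1 dpi, 44.1% (38.0 to 50.3) at 3 dpi and 27.5% (24.4 to 30.9) at 7 dpi. The share was therefore greatest at 3 dpi, the day on which Wnt5a was at its lowest.

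Among the secreted Frizzled-related proteins, which bind Wnt ligands outside the cell, Sfrp1 and Sfrp2 shared a course. Sfrp1 was at 5.93, 1.31, 40.8 and 63.9 CPM at days 0, 1, 3 and 7 (260, 22, 2288 and 2675 UMIs). Sfrp2, which is also a matrix-associated product of stromal cells, was at 15.7, 3.87, 105 and 285 CPM (689, 65, 5896 and 11933 UMIs). Both were lowest at 1 dpi, at log2 ratios to day 0 of -2.18 (-2.88 to -1.55) for Sfrp1 and -2.02 (-2.41 to -1.65) for Sfrp2, and both were well above the uninjured section by 3 dpi. At day 7 the ratio to day 0 was 10.8-fold for Sfrp1 and 18.2-fold for Sfrp2. From day 3 to day 7 the ratio was 1.57-fold for Sfrp1 and 2.71-fold for Sfrp2. Sfrp2 UMIs were unevenly spread, with up to 264 in a spot at day 7 against 55 at day 0. The share of spots with an Sfrp2 UMI was 14.5%, 1.91%, 45.8% and 63.8%, and with every spot thinned to 2000 UMIs it was 3.11%, 0.994%, 13.6% and 28.6%, so the order of days was kept at equal depth.

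Sfrp5 behaved unlike its relatives. It was at 11.5, 6.68, 7.08 and 9.11 CPM at days 0, 1, 3 and 7 (505, 112, 397 and 381 UMIs), highest in the uninjured section and within 2-fold of it on each injured day. The 2-fold limit held only with this scaling, because with TMM factors the log2 ratio of day 3 to day 0 was -1.25. Days 1 and 3 did not differ beyond counting error.

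Frzb (also called Sfrp3), an inhibitor known from developing cartilage, had the deepest trough of the 10 genes. Its level was 27.2 CPM at day 0 (1194 UMIs), 0.954 at 1 dpi (16 UMIs), 1.25 at 3 dpi (70 UMIs) and 53.9 at 7 dpi (2254 UMIs). It was 28.5-fold lower at day 1 (log2 ratio -4.83, -5.65 to -4.13) and 21.8-fold lower at day 3 (-4.45, -4.82 to -4.10) than in uninjured muscle, and those 2 days did not differ beyond counting error. Day 7 was 43.2-fold above day 3 and 1.98-fold above day 0, a ratio just inside the 2-fold limit used for counting. With TMM factors the log2 ratio of day 7 to day 0 went from 0.99 to 0.38. Thinned to 2000 UMIs, 5.13% of spots held a Frzb UMI at day 0, 0.219% at 1 dpi, 0.259% at 3 dpi and 9.04% at 7 dpi.

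The inhibitors of other families were low in uninjured muscle. Dkk3, a divergent Dickkopf family member, was at 1.23, 1.91, 3.14 and 41.2 CPM (54, 32, 176 and 1723 UMIs), with days 0 and 1 not distinguishable and day 7 at 33.5-fold over day 0 (log2 ratio 5.06, 4.67 to 5.48). Most of that difference came after day 3, since day 7 was 13.1-fold above it. Wif1, which binds Wnt ligands through its WIF domain, was at 0.501, 1.31, 0.748 and 2.39 CPM. These levels rested on 22, 22, 42 and 100 UMIs. Its day 7 level was 4.77-fold over day 0 (log2 ratio 2.25, 1.58 to 2.99), while day 3 differed from neither day 0 nor day 1 beyond counting error.

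Of the target genes, Axin2 was within 2-fold of the uninjured section on each injured day. It was at 3.35, 2.56, 2.10 and 5.26 CPM (147, 43, 118 and 220 UMIs). Day 7 was highest at 1.57-fold over day 0 (log2 ratio 0.65, 0.34 to 0.96) and day 3 was lower than day 0 (-0.67, -1.03 to -0.31), whereas day 1 could not be told from either. With TMM factors the log2 ratio of day 7 to day 0 came to 0.04, so the size of that small excess rests on the scaling. The day 3 ratio came to -1.22 with them, past 2-fold. Lef1, the transcription factor that partners beta-catenin, was close to absent, with 6, 0, 9 and 7 UMIs in whole sections. The 0 at day 1 allows a level of up to 0.179 CPM when read as 3 UMIs, and of up to 0.220 CPM by the exact Poisson limit, both above the levels of 0.137 to 0.167 CPM on the other days, so no order of days can be read for Lef1. Of its 6 UMIs at day 0, 4 lay in 1 spot.

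**Figure D1:**
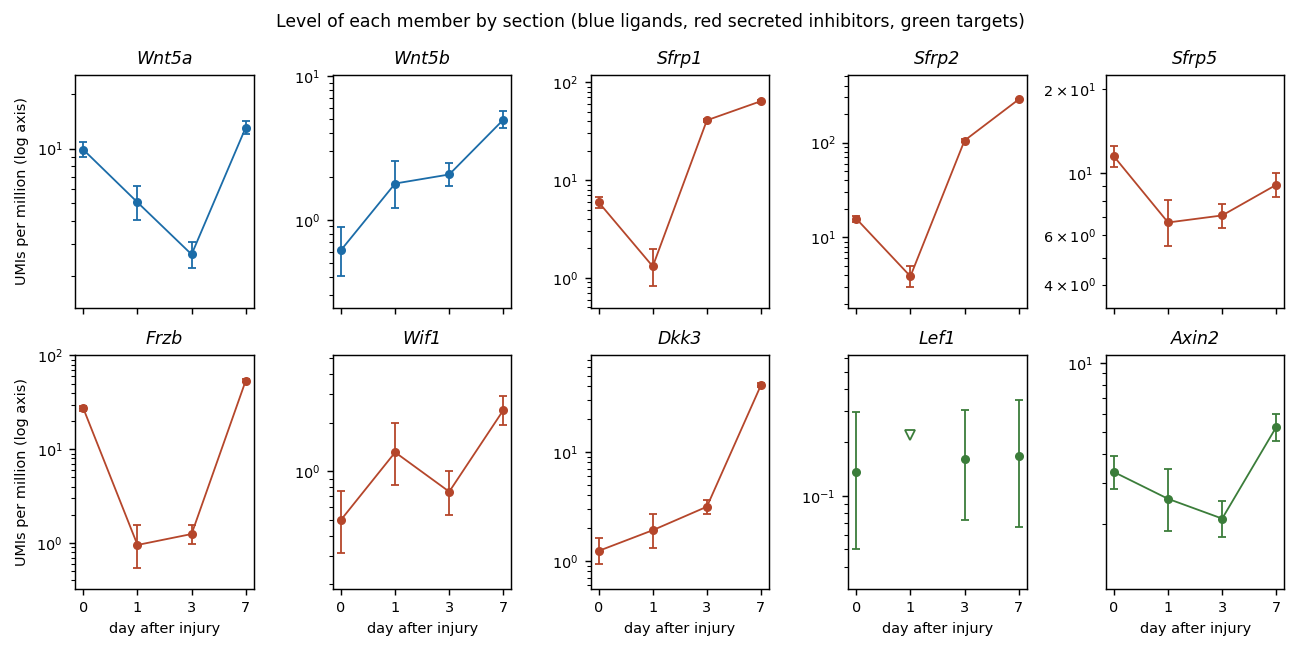
Level of each of the 10 genes in the day 0, 1, 3 and 7 sections, as CPM on a log axis that differs between panels, with exact Poisson 95% intervals as bars and an open triangle for the upper limit of Lef1 at day 1, where no UMI was counted. Frzb drops from 27.2 to 0.954 by day 1 and stands at 53.9 at 7 dpi, Sfrp1 and Sfrp2 dip at 1 dpi and are highest at 7 dpi, and Sfrp5 stays between 6.68 and 11.5.

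The counts of members past 2-fold were read against all features with at least 20 UMIs over the sections, of which there were 16094 and which all 10 members passed. At day 1, 2 members were higher (Wnt5b and Wif1) and 3 lower (Sfrp1, Sfrp2 and Frzb), beside 17.8% of all features higher and 10.6% lower. At day 3, 4 were higher (Wnt5b, Sfrp1, Sfrp2 and Dkk3) and 2 lower (Wnt5a and Frzb), beside 32.5% higher and 8.19% lower overall. At day 7, 5 were higher (Wnt5b, Sfrp1, Sfrp2, Wif1 and Dkk3) and 0 lower, beside 32.3% and 1.91% of features. The 3 comparisons share the day 0 section, so they are not independent of each other. Day 7 over day 3 had 7 members higher (these without Sfrp1, and with Wnt5a, Frzb and Axin2) and 0 lower, beside 15.5% and 11.2%. The median log2 ratio over the members was -0.79, 0.40 and 1.62 at days 1, 3 and 7 against day 0, whereas over all features with a direction it was 0.17, 0.57 and 0.65. A general shift of the scale was part of these values, since TMM factors moved every log2 ratio by -0.21, -0.55 and -0.61 on those days. With them, day 3 had 3 members higher, Dkk3 no longer among them at a log2 ratio of 0.80, and 4 lower, with Sfrp5 (-1.25) and Axin2 (-1.22) added.

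The rest of the pathway was followed with a list of 77 further genes in 8 roles, of which 62 passed the filter. At day 1, 6 of these were higher past 2-fold and 12 lower, at day 3, 20 and 8, and at day 7, 33 and 0, with a median log2 ratio of -0.34, 0.14 and 1.05. The shares higher were 9.68%, 32.3% and 53.2%, beside 17.8%, 32.5% and 32.3% of all features, and the shares lower were 19.4%, 12.9% and 0%, beside 10.6%, 8.19% and 1.91%. Counted with the members, 24 genes were higher and 10 lower at day 3, which TMM factors turned into 10 and 18, and the 38 higher at day 7 became 22, with 1 lower. Among genes with at least 50 UMIs in either section, the largest excess at day 1 was that of Myc, a proliferation factor and one of many Wnt targets, at 32.2 CPM against 5.52 at day 0 (log2 ratio 2.55, 2.33 to 2.77). The receptor Fzd5 followed with 6.20 CPM against 1.71 (log2 ratio 1.86), and Sfrp4 was lowest with 3.28 against 14.8 CPM (-2.17), near its relatives Sfrp1 and Sfrp2. Fzd10 (-2.02), the ligand Wnt11 (-1.91) and the Dishevelled-binding protein Dact1 (-1.51) were the next lowest.

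At day 3 the ligands Wnt7b and Wnt10a were among the 4 highest ratios to day 0, by which they were chosen for naming. Wnt7b had 1, 7, 180 and 0 UMIs over the 4 days and Wnt10a had 9, 2, 153 and 18. Their excess of day 3 over day 0 follows from that choice, whereas their counts at days 1 and 7 were not part of it. Ccn4 (WISP1), a matrix protein and Wnt target, was at 1.16 CPM at day 0 and 15.8 at day 3 (log2 ratio 3.76, 3.35 to 4.20). Tpbg, a membrane glycoprotein that inhibits canonical signalling, was at 0.456 and 5.97 CPM (log2 ratio 3.71, 3.06 to 4.44). Among the lowest at day 3 were Fzd10 (log2 ratio -2.31), Dkk2 (-1.52), Wnt6 (-1.30) and Fzd4 (-1.30).

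At day 7, 9 of 16 receptors and coreceptors were past 2-fold higher than at day 0, beside 32.3% of all features, and with TMM factors 5 were. Tpbg (log2 ratio 5.40) and Ccn4 (4.36) had the highest ratios, followed by Ptk7, a coreceptor of planar cell polarity, and the Frizzled receptor Fzd2. Ptk7 was at 16.5 CPM against 1.21 (log2 ratio 3.77, 3.37 to 4.20) and Fzd2 at 31.5 against 4.31 (2.87, 2.65 to 3.10). Ror2, a receptor for Wnt5a, was at 1.69, 1.25, 3.07 and 9.30 CPM over the 4 days. Both secretion genes, Wls and Porcn, were past 2-fold higher at day 7 (log2 ratios 1.81 and 1.17), and with TMM factors Wls alone was (log2 ratio 1.2, Porcn 0.56). Of the 12 cytoplasmic and nuclear transducers, 0 passed 2-fold in either direction at day 1 and 4 were higher at day 7 (33.3%, near the 32.3% of all features). With TMM factors only Bcl9 of these 4 was past 2-fold. Fzd10 (-0.13), Ccnd1 (-0.03), Wnt6 (0.07) and Fzd4 (0.08) had the lowest day 7 ratios among genes with at least 50 UMIs, and each interval held 0. With TMM factors these log2 ratios were -0.74, -0.64, -0.54 and -0.53, so their closeness to day 0 depended on the scaling.

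**Figure D2:**
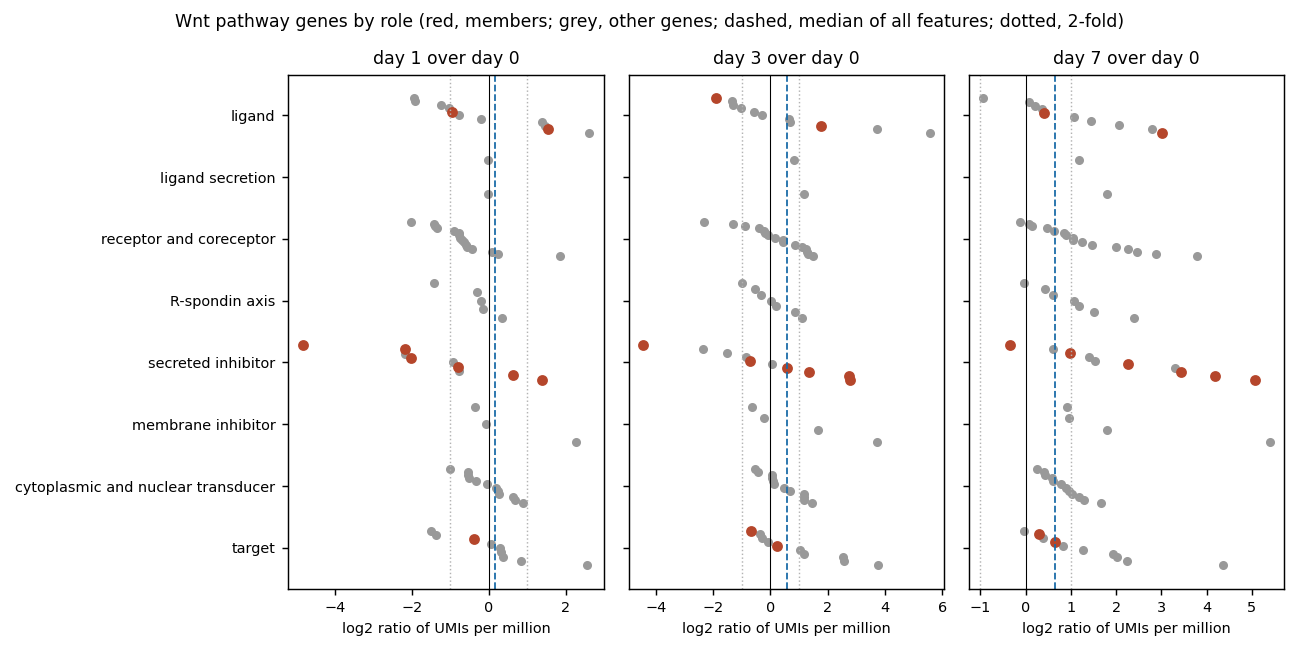
Log2 ratio of CPM to day 0 for the Wnt pathway genes that passed the filter and had a direction, grouped by role along the vertical axis, with the 10 described genes in red, the others in grey, the median of all features as a dashed line and 2-fold as dotted lines. At day 1 the transducers lie between the dotted lines and Frzb is the leftmost point at -4.83, and at day 7 no gene lies left of the lower dotted line.

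Summed over their roles, the secreted inhibitors of the list gave 2.45 UMIs per ligand UMI at day 0 (2.30 to 2.60), 1.15 at 1 dpi (0.993 to 1.34), 6.47 at 3 dpi (6.12 to 6.84) and 8.92 at 7 dpi (8.56 to 9.31). Without Sfrp2, which held most of the inhibitor UMIs at days 3 and 7 and was set aside after the values were seen, the same quotient was 1.98, 0.958, 2.43 and 3.98. The order of days stayed, and the gap between day 0 and day 3 narrowed.

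Within a section, the members were located by comparing their CPM in the 10% of spots richest in a marker list with their CPM in the other spots of at least 2000 UMIs. Where fewer than 10% of spots held a UMI of the list, the set was the spots that did, as for the 42 neutrophil spots of day 0 and the 91 osteogenic spots of day 1. Such spots are rich in the RNA of those marker genes and are not cells of that type, and no member was on a list. At day 7 the chondrogenic and osteogenic spots were largely the same, sharing 230 of 295 spots (78.0% of each set), and the chondrogenic and tendon sets shared 113 (38.3%). For that reason, spots in 1 of the chondrogenic, tendon, fibroblast and Schwann cell sets only were also compared with the 2094 day 7 spots in none of the 4, an alternative chosen after seeing the data. Such spots could still lie in the osteogenic, MSC or other remaining sets. At day 7 the fibroblast set shared 118 of its 295 spots with the set of MSC, mesenchymal stem or stromal cells.

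Sfrp5 was enriched in Schwann cell spots in every section. It was at 74.7 CPM there against 5.68 in the other spots at day 0, a ratio of 13.1 (10.99 to 15.7). The ratio was 19.7 (13.2 to 30.0) at 1 dpi, 17.0 (13.8 to 20.9) at 3 dpi and 12.5 (10.1 to 15.3) at 7 dpi, and the set held between 48.8% and 62.6% of the Sfrp5 UMIs on each day. The Schwann-only spots gave ratios of 12.6, 14.2, 14.5 and 11.4, so the chondrogenic, tendon and fibroblast sets were not needed for the difference. Overlap with the remaining lists was not set aside in this way. Among the genes whose spot-to-spot pattern was most like that of Sfrp5 at day 0 were the myelin genes Mbp (Pearson's r 0.461) and Pmp22 (0.337), across 2090 spots of 1 library and 6331 genes. Mbp was also among the most alike at 1 dpi (0.442), 3 dpi (0.440) and 7 dpi (0.425), sections looked at after the values were seen. Sfrp5 was low in tendon spots at day 3 (ratio 0.209, 0.0994 to 0.388) and day 7 (0.194, 0.0922 to 0.361).

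At days 0, 1 and 3, tendon spots held the most Wif1 UMIs of the sets compared. They held 12 of its 22 UMIs at day 0, 20 of 22 at 1 dpi and 31 of 42 at 3 dpi, although they were 10% of the spots. The ratio to other spots was 10.7 (4.23 to 27.6) at day 0, and by 3 dpi it was 22.8 (11.2 to 50.3). Other sets were also enriched, namely chondrogenic spots with 10.1 (3.89 to 25.4) at day 0 and, by 3 dpi, 15.5 (8.07 to 30.3), and fibroblast spots with 19.8 (7.75 to 54.4) and adipocyte spots with 16.0 (6.31 to 42.3) at day 1. At day 7 only 28 of 100 UMIs were there, at a ratio of 2.80 (1.74 to 4.38), and monocyte/macrophage spots had the highest ratio at 3.37 (2.19 to 5.13). In day 7 spots of the tendon set only, Wif1 was at 8.28 CPM against 1.97 in spots of none of the 4 sets, a ratio of 4.21 (2.26 to 7.42). At day 0 the tendon-only spots held 2 Wif1 UMIs, too few for a ratio, and the chondrogenic set, which had 32 spots in common with the tendon set, also held 10 of the 22 UMIs.

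Frzb was concentrated in chondrogenic spots at day 7 and not at day 0. The sets differ in kind, since the chondrogenic genes summed to 237 CPM in the richest spots of day 0 and to 14689 CPM in those of day 7. At day 0 its level was 19.1 CPM in chondrogenic spots and 27.9 in the others (ratio 0.683, 0.522 to 0.879), and the highest ratio for any of the 14 lists was 1.27 (0.881 to 1.78), in the 42 neutrophil spots. Its pattern at that time, looked at after the values were seen, had no gene with r of 0.3 or more. The highest r were 0.229 with Ckmt2, 0.197 with Myh1 and 0.187 with Fabp3. At day 7 it was at 272 CPM in chondrogenic spots against 29.7 elsewhere (ratio 9.13, 8.40 to 9.93), and 50.4% of its UMIs lay in that 10% of spots. Osteogenic spots, largely the same spots, had a ratio of 8.46, so Frzb cannot be assigned to the chondrogenic set alone. Chondrogenic-only spots, from which osteogenic spots were not set aside, gave a ratio of 8.10 (7.17 to 9.15). The ratio of 3.25 in all tendon spots went to 0.868 (0.635 to 1.16) in tendon-only spots. The genes most alike at day 7 were the cartilage matrix genes Col9a3 (r 0.604), Col9a1 (0.590) and Acan (0.581), across 2948 spots. Col9a3, Col9a1 and Acan are themselves on the chondrogenic list, so that likeness and the ratio are 1 measurement. Outside the chondrogenic spots the day 7 level of 29.7 CPM was near the 27.2 CPM of the whole day 0 section. This sets part of a section against a whole one and depends on the scaling. TMM factors moved log2 ratios of day 7 to day 0 by -0.61. In adult myofibre spots Frzb was low at both days, the day 0 ratio being 0.364 (0.262 to 0.493) and the day 7 ratio 0.226 (0.163 to 0.305). At day 0 this stood beside the weak positive r of 0.197 with Myh1, a gene of that list, so no relation of Frzb to muscle fibres is read.

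Sfrp2 was highest in fibroblast spots at day 0 (ratio 6.61, 5.66 to 7.71) and at day 7 (6.69, 6.46 to 6.94). At day 7 it stood at 1132 CPM in these spots and at 169 in the others. Thinned to 2000 UMIs, 67.2% of the fibroblast spots and 24.3% of the others held an Sfrp2 UMI, and in adult myofibre spots the share was 11.1%. Adult myofibre genes took 22.3% of the UMIs of these last spots against 12.5% elsewhere, so they were not free of other cells. Fibroblast-only spots kept a ratio of 5.90 (5.55 to 6.28) and chondrogenic-only spots had 3.68 (3.41 to 3.97). At day 3 the pattern was flatter and led by monocyte/macrophage spots (3.12, 2.95 to 3.29), ahead of MSC spots (2.97, 2.80 to 3.15), MSC being mesenchymal stem or stromal cells. The monocyte/macrophage spots of that day were deeper (median 28702 UMIs against 14949.5) and poorer in adult myofibre RNA (1.16% of UMIs against 8.44%), and the part of either in the ratio was not tested. With a total that leaves out muscle genes the monocyte/macrophage ratio was 2.53. At day 1 the MSC spots led at 17.5 (10.3 to 30.2), from 36 UMIs, with fibroblast spots next at 15.7, inside that interval. Those 2 sets shared 90 of their 215 spots at day 1, so no order between them is read. The genes most like Sfrp2 at day 7 were Col1a1 (r 0.722), Col1a2 (0.715) and Sparc (0.666), which encode matrix proteins of bone and connective tissue. At day 3, a section looked at after the values were seen, they were Ctsb (0.640), Ftl1 (0.618) and Spp1 (0.611), genes that macrophages express strongly.

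Sfrp1 was also highest in fibroblast spots at day 3 (ratio 3.05, 2.77 to 3.34) and day 7 (4.81, 4.45 to 5.2), while at day 0 Schwann cell spots led with 3.76 (2.80 to 4.98) followed by MSC spots with 3.32 (2.46 to 4.42) and fibroblast spots with 3.23 (2.41 to 4.29). MSC spots came second at day 7 with 3.67. In fibroblast-only spots at day 7, from which MSC spots were not set aside, the ratio was 4.64 (4.09 to 5.26), and in tendon-only spots it was 0.901 (0.695 to 1.15). Its most similar genes at day 7 were Col3a1 (r 0.462), Sfrp2 (0.459) and Sparc (0.437).

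Dkk3 at day 7 was spread over the connective tissue sets, with ratios of 5.99 (5.44 to 6.59) in fibroblast, 5.40 (4.90 to 5.95) in tendon and 5.23 (4.73 to 5.77) in chondrogenic spots. In spots of 1 set only the ratios were 3.80 (3.11 to 4.60) for chondrogenic, 2.92 (2.35 to 3.60) for fibroblast and 1.49 (1.12 to 1.95) for tendon, of which the first 2 have overlapping intervals. The genes most like Dkk3 were Thbs2 (r 0.530), Aspn (0.520) and C1qtnf3 (0.518), which encode secreted or matrix proteins. At day 0, with 54 UMIs, it was highest in Schwann cell spots (4.16, 2.13 to 7.72).

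The ligands were less restricted. Wnt5b at day 7 was at 14.4 CPM in chondrogenic spots against 3.94 in the others (ratio 3.65, 2.66 to 4.96), and at 9.57 CPM in chondrogenic-only spots (2.59, 1.43 to 4.39). The overlapping osteogenic spots had a Wnt5b ratio of 3.30. Wnt5a at day 7 had ratios of 2.48 (1.99 to 3.07) in osteogenic and 2.28 (1.83 to 2.81) in chondrogenic spots, with 1.88 (1.27 to 2.70) in chondrogenic-only and 1.82 (1.24 to 2.59) in fibroblast-only spots. On the other days no full set of a list reached a ratio of 3 for either ligand. Fibroblast-only spots at day 1 gave 3.37 (1.46 to 6.90) for Wnt5a, from 9 UMIs.

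Axin2 showed only small differences between these sets. At day 7 its level was 4.32 CPM in chondrogenic spots and 5.38 in the others (ratio 0.802, 0.466 to 1.30), and the highest ratio over the lists was 1.31 (0.884 to 1.90) in tendon spots. Tendon-only spots gave 2.04 (1.21 to 3.27) from 20 UMIs. At day 0 endothelial spots led at 1.84 (1.13 to 2.86). The highest r with any gene at day 7 was 0.0911, and it was also under 0.3 for Wnt5a, Wnt5b, Wif1 and Lef1, so no likeness is read for these genes.

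**Figure D3:**
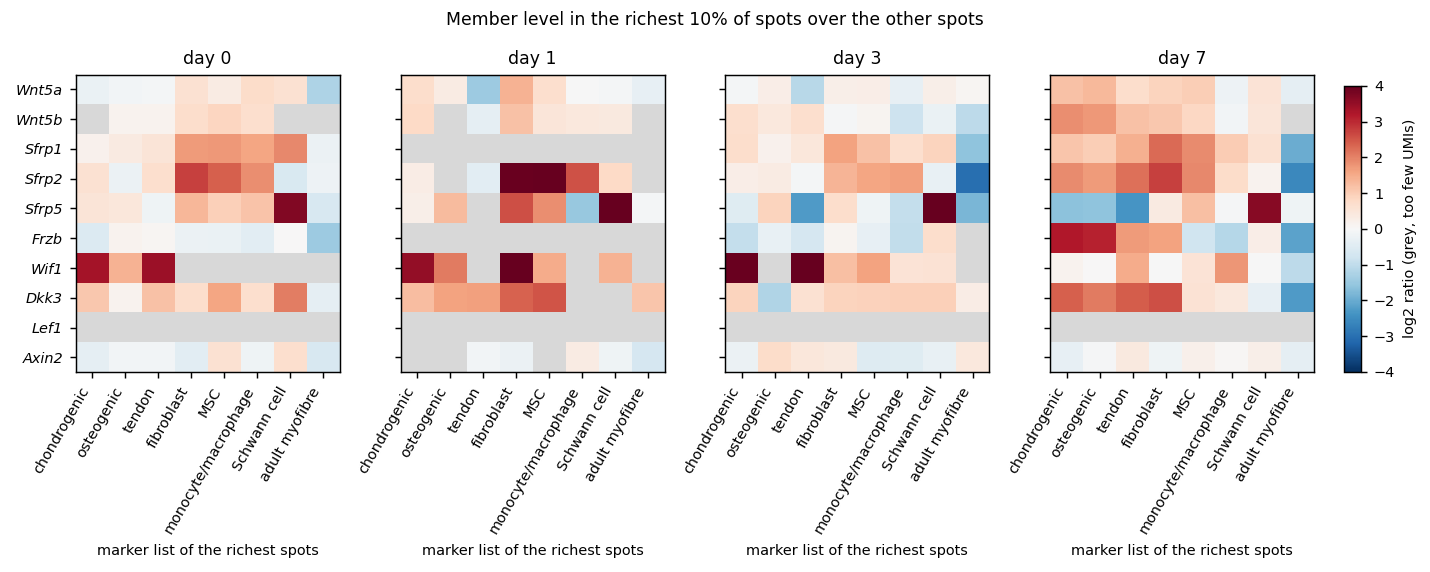
Log2 ratio of each gene's level (CPM) in the 10% of spots richest in a marker list over its level in the other spots, by list and day, with red for higher, blue for lower and grey where the gene had under 20 UMIs in the section or under 3 in either set; colours stop at 4 and -4. Sfrp5 is red in the Schwann cell column on all 4 days, Wif1 in the tendon column at days 0 and 3, and Frzb in the chondrogenic and osteogenic columns at day 7 but not at day 0.

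**Figure D4:**
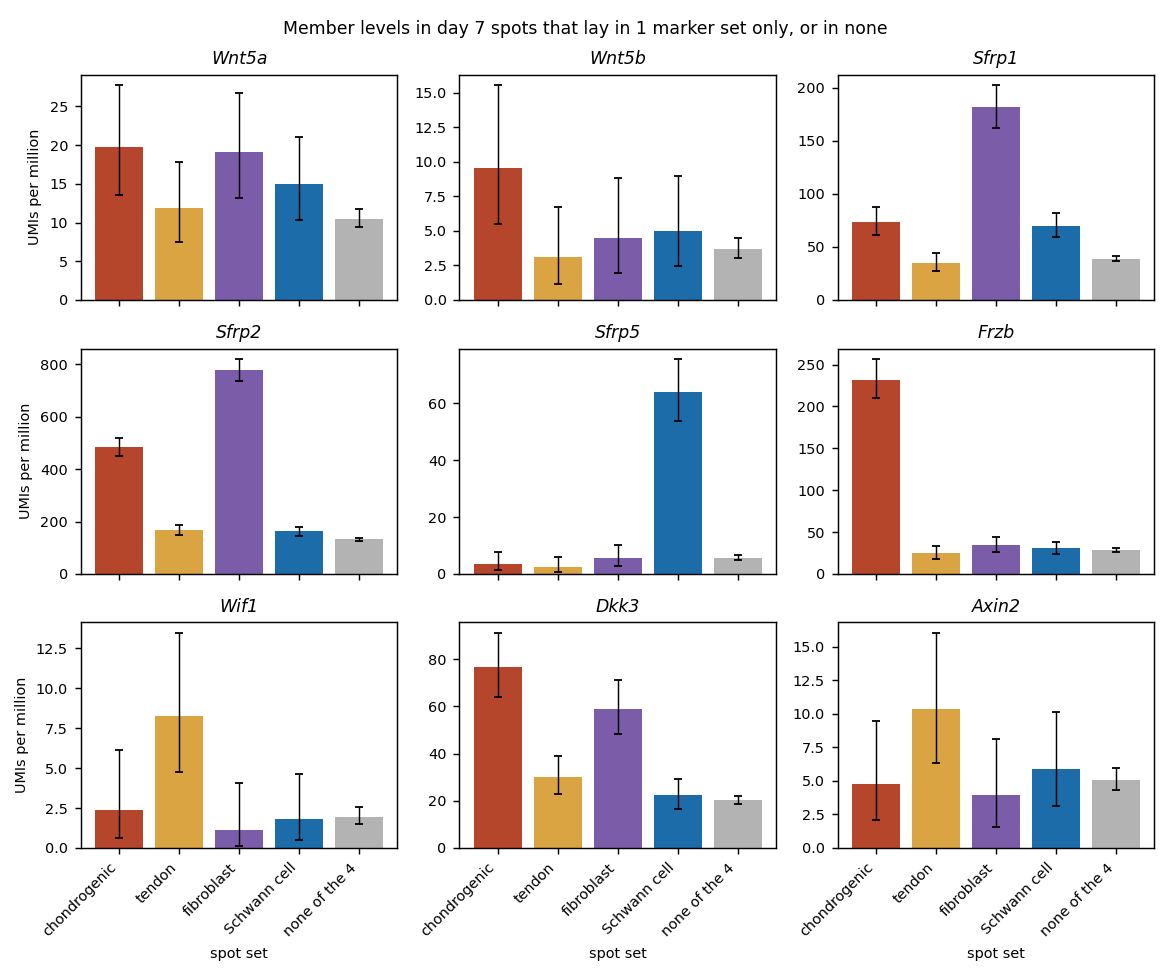
Level in CPM, with exact Poisson 95% intervals, in day 7 spots that belonged to 1 of the chondrogenic, tendon, fibroblast and Schwann cell sets only (132, 129, 121 and 221 spots) or to none of them (2094 spots). Frzb stands apart in the chondrogenic bar, Sfrp1 and Sfrp2 in the fibroblast bar, and Sfrp5 in the Schwann cell bar, Wif1 is highest in the tendon bar with an interval that overlaps the chondrogenic one, and Wnt5a and Axin2 have overlapping intervals in most bars.

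The presence of pairs of members in the same spot was compared with the number expected from each gene's own number of spots and the depth of each spot. At day 7, 37 pairs had at least 5 expected spots, of which 10 had an interval above 1 and 0 an interval below it. Dkk3 took part in 5 of these, with Wnt5b (99 spots against 62.1 expected, ratio 1.59, 1.30 to 1.94), Frzb (1.31, 1.19 to 1.44), Sfrp1 (1.31, 1.2 to 1.44), Wnt5a (1.29, 1.11 to 1.48) and Sfrp2 (1.17, 1.08 to 1.26). Wnt5b was also seen with Frzb more often than depth alone would give (1.31, 1.07 to 1.59). At day 0 the Sfrp5 and Dkk3 pair was found in 19 spots against 7.63 expected (2.49, 1.5 to 3.89), and Sfrp1 and Sfrp5 in 54 against 33.1 (1.63, 1.22 to 2.13). At day 3 the pairs above expectation were Sfrp1 and Sfrp2 (702 spots, 1.12, 1.04 to 1.2) and Sfrp1 and Wif1 (29 spots, 1.54, 1.03 to 2.2). Sfrp2 and Frzb shared fewer spots than expected at day 0 (101 against 130, ratio 0.777, 0.633 to 0.945), and Sfrp2 and Sfrp5 at day 3 (88 against 131, 0.674, 0.540 to 0.830). The intervals treat spots as independent, which neighbouring spots are not.

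**Figure D5:**
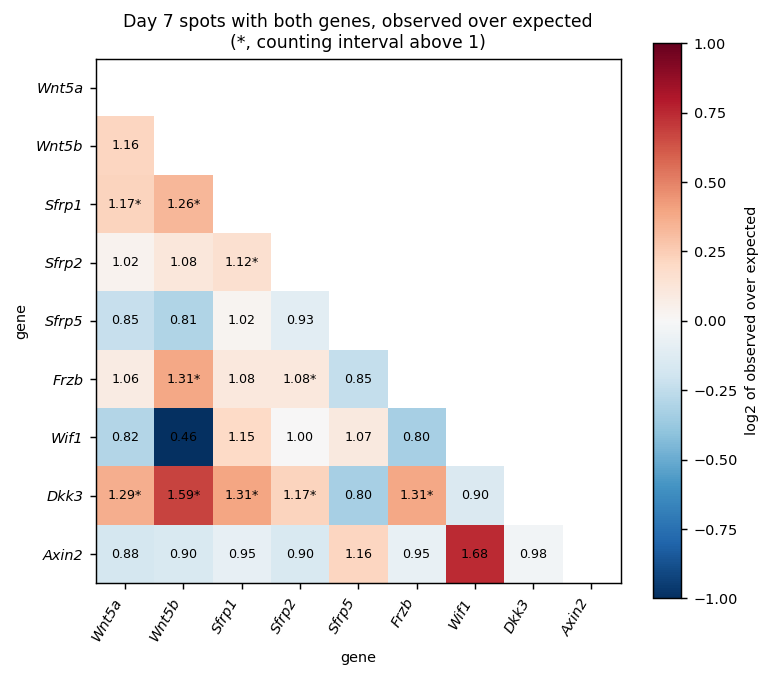
Number of day 7 spots that held both genes of a pair, divided by the number expected from each gene's spots and the spot depths; cell text gives the quotient, colour its log2, an asterisk an interval above 1, and blank cells had under 5 expected spots or repeat a pair. Dkk3 has 5 of the 10 asterisks, with its highest quotient of 1.59 beside Wnt5b, and no cell of Axin2 has one.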

How the data were processed

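Spatial transcriptomes were examined for 4 sections, grouped by the day in their labels. The deposited values were raw counts of UMIs per gene and spot, which the authors produced with software of 10x Genomics. The file headers name Space Ranger 1.2.0, the study's methods name another version, and the submitters' processing notes name Cell Ranger and the mm10 build. Spot positions, images and the single-cell data were not analysed here.

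The members and lists were chosen with earlier results of these data known. Counts were summed over spots and divided by the section total to give CPM, with exact Poisson intervals, and ratios had exact conditional binomial intervals at 95%. A gene under 3 UMIs was entered at 3 in a ratio, and no ratio is given where that sets its direction. Features needed 20 UMIs over the sections to be counted. No count model was fitted, since there was 1 section per day. Named pathway genes were the 4 highest and 4 lowest ratios on each day among genes with at least 50 UMIs in either section. Ror2, Wls and Porcn were added after their values were seen. Spot sets came from 14 marker lists, over spots of at least 2000 UMIs. Thinned shares were exact hypergeometric expectations, with Clopper-Pearson intervals in the tables. Likeness was Pearson's r, across spots, of the log of 1 plus UMIs per 10000 of the spot, over genes with at least 500 UMIs. It was taken in the section where a member was highest, and is read only from r of 0.3. Part of the likeness results is not reported here. No doublet caller was run, since spots hold several cells. Alternatives were scaling with DESeq2 size factors or TMM factors from edgeR, a section total that omits muscle, mitochondrial and haemoglobin genes, and other limits and filters.

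Promoter windows and gene positions came from RefSeq tables of GRCm38.p6. Calculations were tested on simulated data. Scaling factors came from DESeq2 1.42.0 and edgeR 4.0.16 in R 4.3.3, and all else was run in Python 3.11.15 with pandas 2.3.3, SciPy 1.17.1 and NumPy 2.4.6, and drawn with matplotlib 3.10.9.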

Additional observations from a re-analysis of the deposited data

How the results depend on the processing

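With TMM factors the Wnt5a log2 ratio of day 7 to day 0 turned to -0.20 and with DESeq2 size factors to -0.23. Members past 2-fold lower at day 3 numbered 4 with either of these factors and with a total without muscle genes. With a limit of 1.5-fold, 5 members were lower at day 1 and 4 at day 3. With 3-fold, 0 were higher at day 1 and 4 were higher at day 7 than at day 3. Pathway genes, members included, numbered 8 higher and 15 lower at day 1, 24 and 10 at day 3 and 38 and 0 at day 7. At day 1 these became 13 and 27 at 1.5-fold and 4 and 7 at 3-fold. At day 3, 10 were higher with TMM factors, 10 with DESeq2 size factors, 13 without muscle genes and 10 at 3-fold, while 18 were lower with TMM factors, 19 with DESeq2 size factors and 4 at 3-fold. At day 7, 22 were higher with TMM factors, with DESeq2 size factors and at 3-fold, and 1 was lower with TMM factors, with DESeq2 size factors, without muscle genes and at 1.5-fold. In tendon-only spots at day 7 the ratio was 0.839 for Wnt5b, 0.901 for Sfrp1 and 0.868 for Frzb, against values above 1 for all tendon spots. With TMM factors, 5 of the other 16 receptors and coreceptors, 1 of 12 transducers and 1 of 2 secretion genes were past 2-fold higher at day 7. Of 83 ratios between spot sets, 28 moved beyond counting error with the richest 5% of spots, 26 with the richest 20% and 25 without muscle genes, and none turned. Spots of at least 2000 UMIs and other UMI filters moved no count past 1.5 times. No paired analysis was possible because each day had 1 section. Few UMIs limit what can be read for Lef1 in every section, and for Wif1 and Wnt5b at days 0 and 1.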

Other observations

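The following Wnt pathway genes outside the 10 were singled out after their values were seen. Wnt10b, a canonical ligand, had 30, 1, 15 and 198 UMIs at days 0, 1, 3 and 7, and stood at 4.73 CPM at day 7 against 0.684 at day 0. Dkk2, an inhibitor that acts on LRP coreceptors, was at 5.74, 3.34, 1.996 and 15.3 CPM, and Sfrp4 at 14.8, 3.28, 8.22 and 42.6, so both had a trough after injury and their highest level at day 7, as Frzb did. Dkk1 and Sost, inhibitors often discussed in bone, had at most 1 and 4 UMIs in a section. Tcf7, which encodes a TCF factor and is also abundant in T cells, had 19, 13, 141 and 32 UMIs. Among R-spondin receptors, Lgr4 was at 17.3, 6.44, 8.61 and 26.2 CPM, while Lgr5 had at most 19 UMIs in a section. Ccnd1 was highest at day 3, at 80.3 CPM against 39.2 at day 0 and 38.4 at day 7.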
